A study of Mus musculus with 550 samples.

Results

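The kidneys of mice given DMF (dimethyl fumarate, fumaric acid with both acid groups methylated) at 179.2 mg/kg were compared with those of mice given vehicle, 6 h after dosing. Samples were chosen by their titles, which give the organ, the time, the treatment and the animal number. This gave 15 arrays of the 550 in the series, 8 with DMF 179.2 mg/kg (animals 67 to 74) and 7 with vehicle (animals 51 to 57). All mice were C57Bl/6, each received 1 acute dose, and the vehicle was 0.8% hydroxypropyl methylcellulose. Their age and sex are not given in the sources used here, and the labels do not say whether the separate animals shared a cage. The series description names other organs and blood but not the kidney, so the tissue rests on the sample labels. Messenger RNA was measured on Affymetrix oligonucleotide arrays, 1 array per animal and organ, and values are log2 levels. Further kidney groups serve as comparisons: 8 mice given DMF at 100 mg/kg and killed at 6 h, 8 given mixed calcium, magnesium and zinc salts of monoethyl fumarate (MEF) at 79.2 mg/kg and killed at 6 h, and, at 12 h, 8 with DMF 179.2 mg/kg and 8 with vehicle. The model that estimates the spread also holds 7 kidneys at 6 h and 4 at 12 h of mice given DMF 100 mg/kg with MEF 79.2 mg/kg, and at 12 h 6 kidneys with DMF 100 mg/kg, 7 with MEF and 6 labelled naive.

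Fumaric acid esters are electrophiles that react with thiols, including those of glutathione and of the sensor protein KEAP1. KEAP1 normally delivers the transcription factor NRF2 to the proteasome. When its cysteines are modified, NRF2 accumulates, pairs with small MAF proteins and binds antioxidant response elements, which raises enzymes that reduce quinones and carbonyls, make and use glutathione, regenerate thioredoxin and NADPH, and break down heme. The kidney tubule carries much of this machinery, since it takes up and conjugates electrophiles and secretes the products.

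Kidney marker genes were strong in both groups. Kap, the androgen-regulated protein of proximal tubule cells, lay at 13.63 to 13.77 in DMF 179.2 kidneys and at 13.65 to 13.74 in vehicle kidneys, and Umod, the uromodulin gene of the loop of Henle, at 12.80 to 13.09 with DMF 179.2 and 12.77 to 12.94 with vehicle. Of 10 measured proximal tubule markers, 0 were called higher and 1 lower, and of 19 markers of the loop of Henle, distal tubule and collecting duct, 1 was higher and 0 were lower. The labelled organ therefore had its defining markers. Adipocyte markers varied widely: the mean log2 level of the 4 measured ranged from 5.42 to 9.37 over DMF 179.2 kidneys and from 7.51 to 9.14 over vehicle kidneys. All 4 were lower with DMF 179.2, though none was called: Adipoq gave -1.52, Ucp1 -0.86, Fabp4 -0.54 and Lep -0.28. The part of fat cells in the other results was not tested. Arrays of a group correlated closely across genes, at r of 0.9971 to 0.9983 among DMF 179.2 arrays and 0.9977 to 0.9987 among vehicle arrays. The beta-actin 3′ minus 5′ difference, a measure of RNA integrity, was 2.04 ± 0.08 with DMF 179.2 and 1.93 ± 0.08 with vehicle (SD, n = 8 and 7, exact permutation test, 2-sided p = 0.0205). The same difference for Gapdh was 0.675 ± 0.034 with DMF 179.2 and 0.669 ± 0.027 with vehicle (p = 0.714, exact permutation test). The part of RNA integrity in the results was not tested.

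Animal numbers ran along the groups. Counted in runs of 12 from animal 51, the DMF 179.2 animals held places 5 to 12 and the vehicle animals places 1 to 7, so only places 5 to 8 (animals 67 to 70 and animals 55 to 57) hold both. In the 6 h kidneys given DMF 100, MEF or both, 1617 of 17097 genes changed with place. Tra2b, which encodes a splicing regulator, had the 3 levels 4.39, 4.99 and 5.37 (lowest, median and highest) in DMF 179.2 kidneys and 5.26, 6.42 and 6.72 in vehicle kidneys. Its difference of -1.32 ± 0.25 (log2 ± SE of the model, adjusted p = 2.25e-05) was -0.77 with place in the model. Within places 5 to 8 it was -0.68, and no longer called (adjusted p = 0.149). Values within places 5 to 8 rest on 4 and 3 arrays, and are given below for each named gene that lost its call there.

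**Figure D1:**
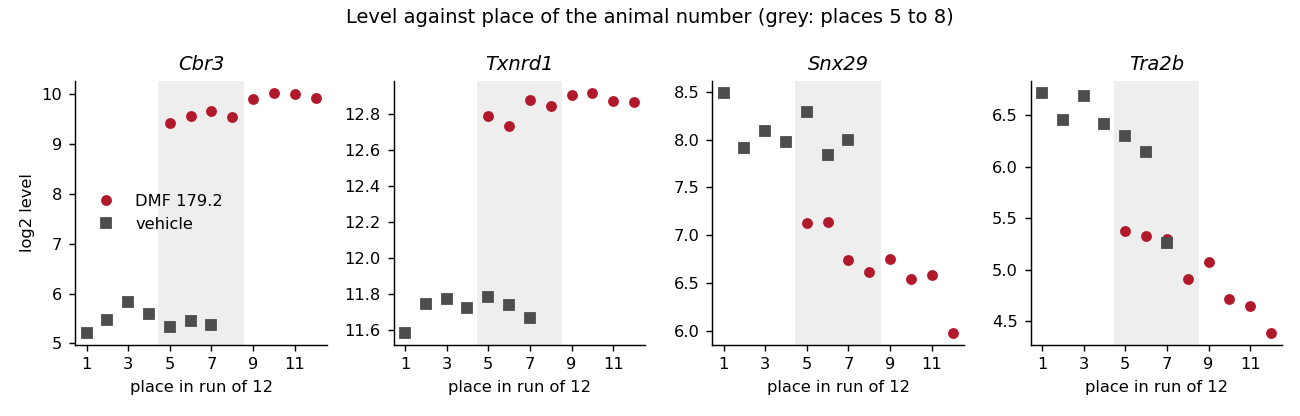
Log2 level (y axis) against the place of the animal number in runs of 12 (x axis) for 4 genes, with 8 DMF 179.2 arrays as circles, 7 vehicle arrays as squares and the shared places 5 to 8 shaded. Cbr3 and Txnrd1 stayed apart by group at the shared places, Snx29 was lower with DMF 179.2 there too, and Tra2b declined along the places within both groups and met at place 7.

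Of 17097 genes tested, 4267 (25%) differed between DMF 179.2 and vehicle, 2559 (15%) higher and 1708 (9.99%) lower. The shares of 15% and 9.99% are the background for the list counts below. A gene was called when limma's moderated test gave a Benjamini-Hochberg adjusted p below 0.05 over all genes. After a further quantile normalization the split was 2081 higher and 2225 lower, so the excess of higher genes depends on scaling. The median difference over all genes was 0 on both scales. However, 2585 genes lay within 0.05 of the array floor (2.16) on all 15 arrays, with differences at or near 0. This median therefore cannot show whether the groups were centred alike. Most differences were small. The median size among called genes was 0.27 on the log2 scale, 3795 were below 0.5, and 45 exceeded 1, of which 34 were higher and 11 lower. Called also with place in the model and within places 5 to 8 were 1033 genes (6.04%), 555 higher (3.25%) and 478 lower (2.8%), termed place-stable below. In 1232 genes (7.21%) the 2 groups did not overlap, 755 of them higher (4.42%) and 477 lower (2.79%).

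Genes linked to NRF2 were called higher more often than all genes tested. In 9 lists of genes linked to NRF2, 64 of 113 measured members were called higher and 10 lower, against the 15% and 9.99% of all genes. Of the 64, 40 were place-stable. The median difference of the 113 was 0.18, and the other 39 were not called. NRF2 is itself controlled mainly as a protein, which was not measured here. Its messenger RNA, Nfe2l2, ranged over 9.58 to 9.99 in DMF 179.2 kidneys and 9.74 to 9.93 in vehicle kidneys and was not called.

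**Figure D2:**
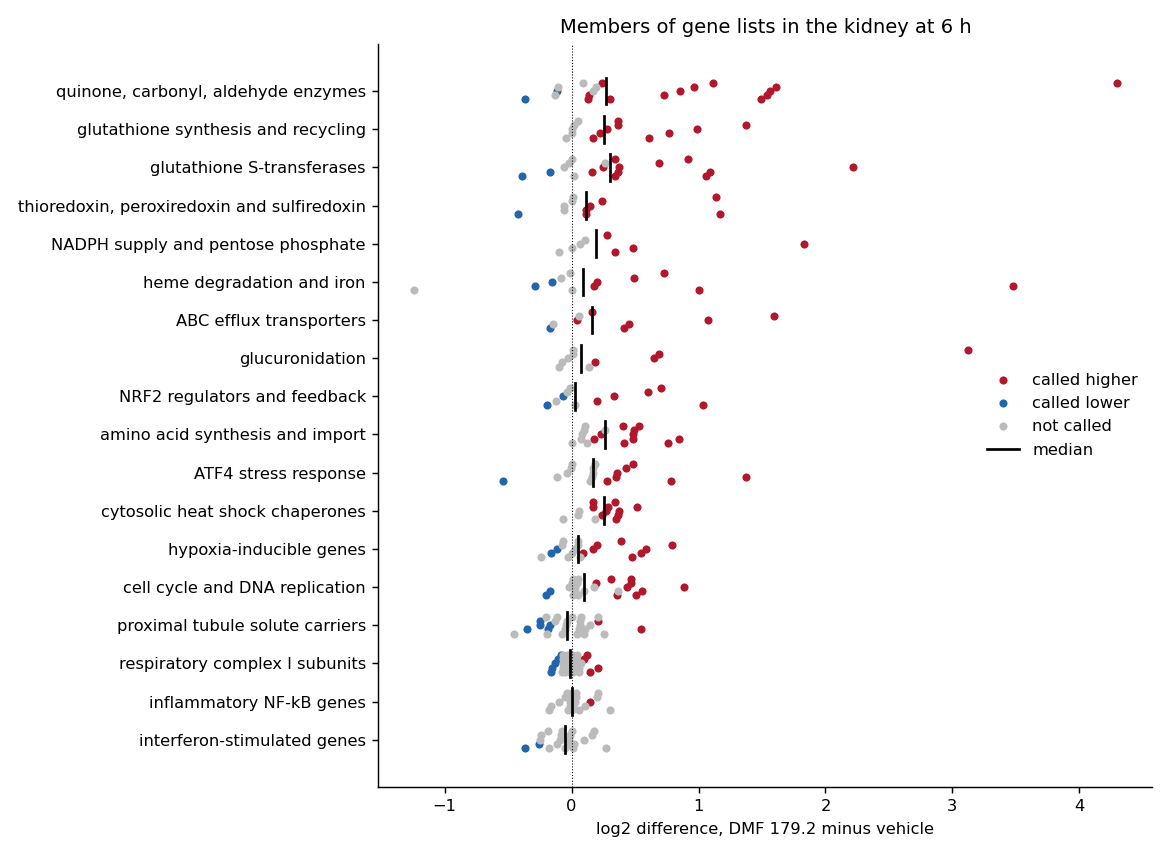
Log2 difference of DMF 179.2 minus vehicle (x axis) for each measured member of 18 gene lists (rows), coloured by call, with the list's median as a vertical bar. The NRF2-linked lists in the top 9 rows hold the genes that differed most, up to 4.30 for Cbr3. The NF-kB and interferon lists at the bottom lie near 0. The NF-kB list was dim (mean levels of 4.38 to 4.58 with DMF 179.2), with 3 members at the array floor.

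Promoter sequences are shown for some higher genes that hold the core of the antioxidant response element, which NRF2 binds with its MAF partner. They were sought among the 15 most raised genes and in Gclm, Mafg, Abcc2, Gclc, Gsta4 and Osgin1, which were added by choice. No promoter sequence was available for some of these, among them Hmox1, Gclc and Gsta4, which were therefore not searched. Binding of NRF2 was not measured here. The pattern TGACNNNGC was searched on both strands from 250 bases before to 50 after each annotated start, in RefSeq sequences of build GRCm38.p6. In capitals is the match, read on the strand of the gene, with up to 20 bases on each side that lie before the start.
Abcc4, chr14:118706220-118706264, minus strand: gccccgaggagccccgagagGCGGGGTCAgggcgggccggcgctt
Abcc4, second start, chr14:118676932-118676974, minus strand: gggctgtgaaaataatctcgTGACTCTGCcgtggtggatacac
Txnrd1, chr10:82859094-82859142, plus strand: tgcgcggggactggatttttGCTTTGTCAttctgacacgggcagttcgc
Gclm, chr3:122245403-122245451, plus strand: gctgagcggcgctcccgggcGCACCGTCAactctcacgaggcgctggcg
Mafg, chr11:120633741-120633789, minus strand: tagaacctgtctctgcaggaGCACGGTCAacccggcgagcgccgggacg
Abcc2, chr19:43782190-43782238, plus strand: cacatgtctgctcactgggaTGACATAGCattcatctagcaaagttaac

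The first base of the match lay 92 bases before the start in Txnrd1, 134 in Gclm, 222 in Mafg and 98 in Abcc2, and 25 and 23 before the 2 starts of Abcc4. In Pgd (TGACATTGC), Akr1c19 (GCTTAGTCA), Srxn1 (GCTAGGTCA) and Gk5 (GCGATGTCA) the match lay 4 to 29 bases after the start. Matches were found for 6 of the 13 genes with a promoter among the 15 most raised genes, 14 of 54 raised members of the NRF2-linked lists, 372 of 2075 raised genes (17.9%) and 2193 of 13605 tested genes (16.1%). Windows without a match included those of Nqo1, Cbr3, Aox1, Gstp1, Alas1 and Osgin1, which says only that these letters are not there. None of the 12 promoters among the 15 most lowered genes held it. These are descriptions of letters, without a test.

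Of 20 measured genes for enzymes that reduce or oxidize quinones, carbonyls and aldehydes, 13 were called higher and 2 lower. Cbr3, a carbonyl reductase, had the largest difference of all genes tested, with levels of 9.42, 9.79 and 10.03 in DMF 179.2 kidneys, against 5.21, 5.45 and 5.82 in vehicle kidneys. The lowest DMF 179.2 kidney was far above the highest vehicle kidney, and the difference was 4.30 ± 0.13, or 19.7-fold (adjusted p = 1.63e-39). Nqo1 encodes the quinone reductase used as the textbook reporter of NRF2. It lay at 10.87, 11.11 and 11.20 in DMF 179.2 kidneys and at 9.41, 9.58 and 9.81 in vehicle kidneys, a 2.81-fold rise without overlap (1.49 ± 0.08, adjusted p = 2.15e-24). Akr1c19, an aldo-keto reductase, rose by 1.56 ± 0.08 to levels of 10.20, 10.44 and 10.71 in DMF 179.2 kidneys, against 8.77, 8.95 and 9.10 in vehicle kidneys, and these groups did not overlap either.

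Aldehyde-oxidizing enzymes followed. Aldh1a7 reached 8.32, 8.77 and 9.19 in DMF 179.2 kidneys, against 6.94, 7.18 and 7.51 in vehicle kidneys (difference 1.61 ± 0.14). Its relative Aldh1a1, retinaldehyde dehydrogenase, reached 8.14, 8.59 and 8.80, against 7.18, 7.48 and 7.57 with vehicle (1.11 ± 0.14). These paralogs are close in sequence, so shared hybridization is possible and was not tested. Aox1, aldehyde oxidase, gave 6.75, 7.34 and 7.88 in DMF 179.2 kidneys and 5.16, 5.84 and 6.08 in vehicle kidneys (1.54 ± 0.19, adjusted p = 2.31e-09). In all 3 genes the groups were separate. Smaller rises came from Akr1b8 (0.96 ± 0.14), the epoxide hydrolase gene Ephx1 (0.86 ± 0.06) and Cbr1 (0.31 ± 0.03), the last with levels of 12.42 to 12.57 in DMF 179.2 kidneys and 12.003 to 12.26 in vehicle kidneys. Cbr4, a mitochondrial carbonyl reductase, fell by 0.37 ± 0.06, with levels of 9.05 to 9.44 under DMF 179.2 and 9.47 to 9.66 under vehicle.

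**Figure D3:**
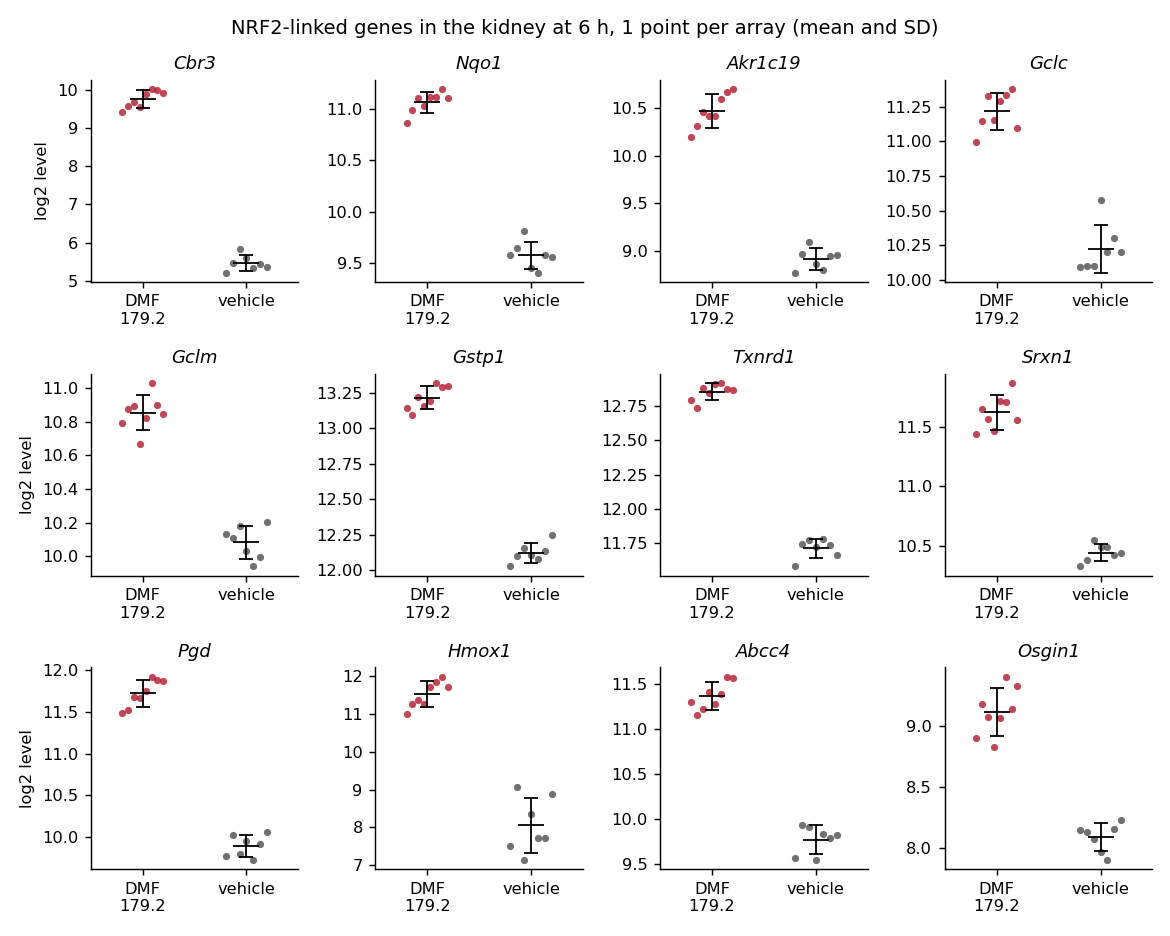
Log2 level (y axis) of 12 NRF2-linked genes on each array, DMF 179.2 (8 arrays) left and vehicle (7 arrays) right, with mean and SD as bars. In each of the 12 panels every DMF 179.2 kidney lies above every vehicle kidney; the axes do not start at 0 and differ between panels.

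The genes of both enzymes that make glutathione rose. Gclc, the catalytic subunit of glutamate-cysteine ligase and the rate-limiting step, had levels of 10.999, 11.22 and 11.38 in DMF 179.2 kidneys, against 10.10, 10.20 and 10.58 in vehicle kidneys. Gclm, the modifier subunit, had 10.67, 10.86 and 11.03 with DMF 179.2, against 9.94, 10.11 and 10.20 with vehicle. The ligase subunits differed by 0.99 ± 0.11 and 0.77 ± 0.05 (adjusted p = 1.21e-10 and 2.94e-19), with no overlap in either. Gss, glutathione synthetase, followed at 0.61 ± 0.08, with levels of 9.58, 9.72 and 9.90 with DMF 179.2 and 8.91, 9.16 and 9.20 with vehicle. In the list as a whole 9 of 14 members were called higher and 0 lower, and 4 of the 9 were place-stable. Gsr, which regenerates reduced glutathione, was higher by 0.22 ± 0.05 (0.53 as the mean of its probe sets), with levels of 12.03 to 12.20 under DMF 179.2 against 11.80 to 11.94 under vehicle, but gave 0.23 within places 5 to 8 without a call (adjusted p = 0.109). Glrx, glutaredoxin, rose by 0.36 ± 0.05.

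Chac1 degrades glutathione and is an ATF4 target. Its levels were low and scattered, 4.51, 5.48 and 6.19 in DMF 179.2 kidneys and 3.51, 3.81 and 5.003 in vehicle kidneys. The groups overlapped, and the difference of 1.38 ± 0.21 (adjusted p = 3.06e-07) was 0.97 within places 5 to 8, not called (adjusted p = 0.101).

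Glutathione S-transferases, which couple glutathione to electrophiles, were higher in 11 of 18 measured members and lower in 2. Gstp1 lay at 13.09, 13.21 and 13.32 in DMF 179.2 kidneys, against 12.03, 12.11 and 12.25 in vehicle kidneys. Gsta4, whose product conjugates the lipid aldehyde hydroxynonenal, lay at 13.04, 13.13 and 13.22 with DMF 179.2, against 12.13, 12.21 and 12.33 with vehicle. Both moved as blocks without overlap, by 1.09 ± 0.04 and 0.92 ± 0.04 (adjusted p = 1.61e-33 and 1.67e-31). In the mu class, Gstm3 was close to the array floor of 2.16 with vehicle, at 2.82, 2.92 and 3.25, against 4.52, 5.20 and 5.84 with DMF 179.2. Its difference of 2.21 ± 0.17 starts from that dim signal. A further probe set of the gene stood at the floor in both groups, so the mean of both gave 1.11. Gstm4 (1.06 ± 0.08) and Gstm1 (0.69 ± 0.04) also rose without overlap. Mu-class genes are near-identical in stretches, so one member's signal may include another's. Gstt2 fell by 0.39 ± 0.06, with overlapping levels of 10.68 to 11.04 under DMF 179.2 and 11.002 to 11.39 under vehicle, and Gstm5 was lower by 0.17 ± 0.03, a call not kept within places 5 to 8 (-0.14, adjusted p = 0.115).

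The thioredoxin branch, which repairs oxidized protein thiols, was higher in 6 of 11 measured members. Txnrd1, cytosolic thioredoxin reductase, had levels of 12.73, 12.87 and 12.92 in DMF 179.2 kidneys, against 11.58, 11.74 and 11.78 in vehicle kidneys. Srxn1, sulfiredoxin, which reactivates peroxiredoxins, had 11.44, 11.60 and 11.87 with DMF 179.2, against 10.33, 10.45 and 10.55 with vehicle. Both roughly doubled, by 2.2-fold and 2.25-fold, with every DMF 179.2 kidney above every vehicle kidney. The 4 probe sets of Srxn1 differed by 0.74 to 1.22. Prdx1, a very abundant peroxiredoxin, was higher by 0.11 ± 0.03 (0.06 as the mean of its probe sets), and by 0.09 within places 5 to 8, where it was not called (adjusted p = 0.222). Txnip, the inhibitor of thioredoxin, was the 1 member that fell, at 11.34, 11.70 and 12.06 in DMF 179.2 kidneys and 12.04, 12.14 and 12.18 in vehicle kidneys (-0.42 ± 0.08, adjusted p = 7.50e-05, and -0.67 as the mean of its probe sets).

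NADPH, the electron donor of these reductases, comes largely from the pentose phosphate pathway, and 4 of 8 measured members of that list were called higher and 0 lower. Pgd, phosphogluconate dehydrogenase, showed the widest shift, with 11.49, 11.72 and 11.92 in DMF 179.2 kidneys, against 9.72, 9.91 and 10.06 in vehicle kidneys. That is 3.56-fold (1.83 ± 0.08, adjusted p = 3.32e-30), and its 3 probe sets differed by 1.83 to 1.94. Tkt, transketolase, was at 12.47, 12.61 and 12.70 with DMF 179.2 and 12.02, 12.07 and 12.29 with vehicle (0.48 ± 0.05, or 0.87 as the mean of its probe sets). Me1, malic enzyme, was higher by 0.34 ± 0.05 over all arrays and by 0.26 within places 5 to 8 (adjusted p = 0.0601, not called).

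Heme and iron genes moved at several steps. Hmox1, the inducible heme oxygenase, had levels of 10.99, 11.54 and 11.99 in DMF 179.2 kidneys, against 7.13, 7.72 and 9.07 in vehicle kidneys. Vehicle kidneys were widely spread for this gene, but the highest of them was still nearly 2 log2 units under the lowest DMF 179.2 kidney, and the mean rise was 11.1-fold (3.47 ± 0.20, adjusted p = 6.83e-23). Alas1, which catalyses the first step of heme synthesis, rose by 1.31 ± 0.11, with 9.90, 10.16 and 10.33 under DMF 179.2 and 8.48, 8.85 and 9.11 under vehicle. Biliverdin, the product of heme oxygenase, is reduced by 2 enzymes whose genes went opposite ways. Blvrb was at 8.47, 8.59 and 8.96 in DMF 179.2 kidneys and 7.43, 7.66 and 7.86 in vehicle kidneys (1.002 ± 0.10), and Blvra, the main adult enzyme, at 10.53, 10.60 and 10.80 with DMF 179.2 and 10.79, 10.89 and 11.02 with vehicle (-0.29 ± 0.05), the first without overlap and the second with. For iron, Tfrc, the transferrin receptor, rose by 0.72 ± 0.08 and Slc40a1, the exporter ferroportin, by 0.49 ± 0.07. The ferritin genes Fth1 (0.20 ± 0.04) and Ftl1 (0.18 ± 0.04) were not called within places 5 to 8 (0.12 and 0.10, adjusted p = 0.316 and 0.399). In the heme degradation and iron list 6 of 12 members were higher and 2 lower. Cyp2a5, a cytochrome P450 known as an NRF2 target in mouse liver, rose by 0.93 ± 0.08 to 12.03, 12.41 and 12.50 in DMF 179.2 kidneys, against 11.24, 11.47 and 11.69 in vehicle kidneys. Its relative Cyp2a4 had no measured entry of its own, so shared hybridization was not tested.

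Transporters that export conjugates were higher in 6 of 9 measured ABC genes, 4 of them place-stable. The smallest of these rises was only 0.04, in a gene with dim levels of 2.70 to 2.98 on the 15 arrays. Abcc4 had levels of 11.16, 11.34 and 11.58 in DMF 179.2 kidneys, against 9.54, 9.83 and 9.93 in vehicle kidneys. Abcc2, on the luminal side of the proximal tubule, had 11.37, 11.46 and 11.66 with DMF 179.2, against 10.28, 10.42 and 10.50 with vehicle. These apical export pumps rose 3.01-fold and 2.108-fold with groups apart (adjusted p = 4.18e-23 and 4.72e-21). Abcc5 (0.41 ± 0.06, but 0.09 as the mean of its probe sets) and Abcb1a (0.45 ± 0.10) rose less. Abcg2, the breast cancer resistance protein and a urate exporter, fell slightly, to 12.23 to 12.42 in DMF 179.2 kidneys, against 12.44 to 12.58 in vehicle kidneys (-0.17 ± 0.03).

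Glucuronidation, the transfer of glucuronic acid to drugs and bilirubin, was higher in 4 of 10 measured genes. Ugt2b5 went furthest, with 5.93, 6.35 and 7.28 in DMF 179.2 kidneys and 2.72, 3.60 and 3.83 in vehicle kidneys (3.12 ± 0.29, adjusted p = 1.25e-13). Its vehicle level was low, and UGT2B genes are alike in sequence. Ugdh, which makes the glucuronic acid donor, rose by 0.65 ± 0.06 and Ugt2b34 by 0.69 ± 0.06. In a list of 12 esterase genes, mostly carboxylesterases, a class of enzymes that can split esters, 5 were called higher and 0 lower, and 0 of the 5 were place-stable. They were the carboxylesterase genes Ces1d, Ces1e, Ces1f and Ces1g, and Esd, the S-formylglutathione hydrolase (0.23 ± 0.07 for Ces1e and 0.13 ± 0.02 for Esd; 0.17 and 0.06 within places 5 to 8, adjusted p = 0.308 and 0.167). The mean of the probe sets of Esd turned to -0.03. Ces1g gave 0.87 ± 0.18, Ces1f 0.45 ± 0.08 and Ces1d 0.35 ± 0.09 over all arrays, and 0.51, 0.24 and 0.39 within places 5 to 8 (adjusted p = 0.132, 0.163 and 0.106).

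Among NRF2's own partners and brakes, 5 of 11 measured genes rose and 2 fell. Osgin1, a growth inhibitor induced by NRF2, had levels of 8.83, 9.11 and 9.41 in DMF 179.2 kidneys, against 7.90, 8.13 and 8.23 in vehicle kidneys. Mafg, a small MAF protein that pairs with NRF2, had 9.01, 9.28 and 9.43 with DMF 179.2, against 8.39, 8.51 and 8.77 with vehicle. Bach1, which competes with NRF2 for the same sites and is released by heme, had 10.66, 10.89 and 11.04 with DMF 179.2, against 10.03, 10.29 and 10.40 with vehicle. All 3 were separate between groups, with differences of 1.03 ± 0.09, 0.70 ± 0.07 and 0.60 ± 0.07, the last 0.19 as the mean of its probe sets.

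A second stress programme, that of the transcription factor ATF4, which responds to amino acid shortage and other stress, was partly raised. In the ATF4 list 7 of 17 members were higher, 1 of them place-stable, and 1 lower, and in the list for amino acid synthesis and import 10 of 17 were higher, 3 of them place-stable, and 0 lower. Atf4 lay at 10.52, 10.72 and 10.90 in DMF 179.2 kidneys and 10.14, 10.26 and 10.32 in vehicle kidneys (0.49 ± 0.05, adjusted p = 7.68e-11), without overlap, and gave 0.30 as the mean of its probe sets. Aars, alanyl-tRNA synthetase, lay at 8.92, 9.06 and 9.49 with DMF 179.2, against 8.16, 8.30 and 8.49 with vehicle (0.85 ± 0.08), and Gars, for glycine, rose by 0.49 ± 0.04. Slc7a1, a cationic amino acid importer, rose by 0.40 ± 0.06, and by 0.22 within places 5 to 8. Several members lost the call within places 5 to 8. Asns, asparagine synthetase, gave 0.76 ± 0.16 over all arrays and 0.41 there (adjusted p = 0.318), and Atf3, a stress-induced factor near the floor in vehicle kidneys (2.84 to 3.27, against 3.01 to 4.39 with DMF 179.2), gave 0.78 ± 0.19 and 0.54 (adjusted p = 0.128). Ddit3, which encodes CHOP, gave 0.43 ± 0.09 and 0.43 (adjusted p = 0.0698). The amino acid carriers Slc7a5 and Slc6a9 gave 0.48 ± 0.10 and 0.53 ± 0.09, and within places 5 to 8 0.37 and 0.17 (adjusted p = 0.096 and 0.481). The mean of the probe sets of Slc6a9 gave 0.30. Vldlr, a lipoprotein receptor, was the member that fell (-0.54 ± 0.11, and -0.31 with place in the model).

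The chaperones of the endoplasmic reticulum and its unfolded protein response were called higher in 2 of 15 members and lower in 1, close to the background, whereas cytosolic heat shock chaperones were higher in 10 of 14 and lower in 0, with 6 place-stable. Dnaja1, a co-chaperone of HSP70, had levels of 10.98, 11.14 and 11.31 in DMF 179.2 kidneys, against 10.61, 10.80 and 10.91 in vehicle kidneys (0.37 ± 0.06). Hsp90aa1, the inducible HSP90, had 10.45, 10.67 and 10.80 with DMF 179.2 and 10.19, 10.26 and 10.59 with vehicle, overlapping at 1 vehicle kidney, for a difference of 0.36 ± 0.08. Hspb8 rose by 0.34 ± 0.10 (0.16 as the mean of its probe sets), and Hspb1 was higher by 0.52 ± 0.13 but not called within places 5 to 8 (0.42, adjusted p = 0.247). All 10 rises were modest, none reaching 1.5-fold.

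Metal-binding genes rose in 4 of 11 measured members and fell in 2, against 15% and 9.99% of all genes. Mt1, metallothionein 1, which buffers zinc and is induced by metals and by oxidants, had 12.37, 12.55 and 12.78 in DMF 179.2 kidneys, against 11.54, 11.72 and 11.79 in vehicle kidneys. The groups did not overlap, the difference was 0.86 ± 0.06 (adjusted p = 2.91e-18), and a second, dimmer probe set gave 1.15. Slc30a1, the zinc exporter of the plasma membrane, rose by 0.30 ± 0.04. Slc39a14, an importer of zinc and iron, was lower by 0.38 ± 0.11, a call not kept within places 5 to 8 (-0.41, adjusted p = 0.0901).

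Outside these lists, Slc38a3 and Gk5 were among the 15 most raised genes. Slc38a3, a glutamine importer that feeds renal ammonia production, had levels of 6.80, 7.43 and 7.63 in DMF 179.2 kidneys, against 5.78, 6.33 and 6.49 in vehicle kidneys (1.10 ± 0.13). A second, dim probe set of Slc38a3 differed by 0.12, and the mean of both by 0.61. Gk5, a glycerol kinase family member, had 8.52, 8.80 and 9.17 with DMF 179.2, against 7.58, 7.74 and 7.90 with vehicle (1.09 ± 0.11). In both genes the groups were separate.

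The 15 most lowered genes among the brighter genes were scattered over many functions, and their size was smaller than that of the most raised. Snx29, a sorting nexin gene, had levels of 5.98, 6.68 and 7.13 in DMF 179.2 kidneys, against 7.84, 7.996 and 8.48 in vehicle kidneys, 2.63-fold lower (-1.40 ± 0.14, adjusted p = 1.22e-12). Averaged with a dim second probe set the difference was -0.84. Napsa, which encodes the aspartic protease napsin A of the proximal tubule, had 6.62, 7.21 and 7.45 with DMF 179.2, against 7.95, 8.19 and 8.48 with vehicle (-1.05 ± 0.10). Rab38, a small GTPase of vesicle traffic, had 6.12, 6.35 and 6.65 with DMF 179.2, against 7.13, 7.28 and 7.47 with vehicle (-0.92 ± 0.10). These 3 were place-stable and their groups were apart. Kcnj15, an inwardly rectifying potassium channel, fell by 1.06 ± 0.14, Slc10a1, the bile acid carrier NTCP, by 0.92 ± 0.13, Foxj3, a forkhead factor, by 0.91 ± 0.13 and Tmem86a, whose product cleaves lysoplasmalogens, by 0.87 ± 0.13, again without overlap. Within places 5 to 8 Kcnj15 gave -0.70 and Foxj3 -0.53, and the means of the probe sets of Slc10a1 and Foxj3, which include one at the floor, gave -0.46 and -0.46.

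For several of the lowered genes the call depends on which probe set is read. Mia3, an exporter of collagen from the endoplasmic reticulum, gave -1.08 ± 0.22 with the probe set tested and -0.93 with another, while 2 further probe sets gave 0.19 and 0.28. Wwox, an oxidoreductase gene, gave -0.88 ± 0.10 against -0.01 in another probe set. Arhgef11 gave -0.99 ± 0.14 against 0.09. Zfp445 gave -0.91 ± 0.14 and -0.86 against 0.17, Zfp280d -0.88 ± 0.16 against -0.11, and Cbl, a ubiquitin ligase, -0.999 ± 0.18 against -0.17. Raised genes varied in this too. All probe sets of Pgd and Srxn1 moved the same way, but Slc38a3 gave 1.10 against 0.12 and Gstm3 2.21 against 0. Cbl, Zfp445, Zfp280d and Gmfb (-0.90 ± 0.15) were not called within places 5 to 8, at -0.37, -0.36, -0.31 and -0.49 (adjusted p = 0.215, 0.0616, 0.229 and 0.13). Mia3 also changed with place in the other 6 h groups (-0.0905 per place, adjusted p = 1.95e-05), as did Tra2b (-0.112 per place, adjusted p = 2.98e-06). Averaged over probe sets, the differences were -0.39 for Mia3, -0.30 for Wwox, -0.45 for Arhgef11, -0.54 for Zfp445, -0.50 for Zfp280d, -0.39 for Cbl and -0.45 for Gmfb. With place in the model Mia3 gave -0.62, Arhgef11 -0.65, Cbl -0.56, Zfp445 -0.58 and Zfp280d -0.51, and within places 5 to 8 Mia3, Arhgef11 and Wwox were still called, at -0.55, -0.54 and -0.47. The part of place and of the probe set in these differences was not tested further.

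Cyp27b1, which makes the active form of vitamin D in the proximal tubule, was variable. Its levels were 5.28, 6.03 and 7.93 in DMF 179.2 kidneys and 6.66, 7.35 and 7.75 in vehicle kidneys, with overlap at the top. The difference of -1.07 ± 0.38 (adjusted p = 0.0294) lost its call without any one of the DMF 179.2 animals 67, 70, 73 and 74 or the vehicle animals 52, 54 and 56, at -1.03 to -0.94. Within places 5 to 8 it was -0.77 (adjusted p = 0.575). In the list of vitamin D, phosphate and renin-angiotensin genes 2 of 13 were higher and 3 lower, none place-stable. The shares over all genes were 15% and 9.99%.

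Solute carriers of the proximal tubule mostly stayed uncalled: 2 of 27 were higher and 5 lower, against 15% and 9.99% of all genes. Slc22a12, the urate reabsorber URAT1, had levels of 11.21, 11.36 and 11.59 in DMF 179.2 kidneys, against 10.53, 10.87 and 11.06 in vehicle kidneys, without overlap (0.54 ± 0.07, adjusted p = 2.13e-08, and 0.33 within places 5 to 8). Slc13a3, a carrier of dicarboxylates, was higher by 0.21 ± 0.05, and by 0.21 within places 5 to 8 without a call (adjusted p = 0.156). The 5 lower members were Slc5a8 (-0.35 ± 0.07), a carrier of monocarboxylates, the amino acid carrier genes Slc7a7 (-0.25 ± 0.04), Slc7a9 (-0.19 ± 0.04) and Slc3a1 (-0.17 ± 0.03), and the bicarbonate carrier gene Slc4a4 (-0.25 ± 0.04). The mean of the probe sets of Slc4a4 gave -0.55. Slc3a1 and Slc4a4 were not called within places 5 to 8, at -0.16 and -0.18 (adjusted p = 0.0698 and 0.109). From other lists, Slc2a2, the basolateral glucose carrier, fell by 0.31 ± 0.05 and the water channel gene Aqp1 by 0.23 ± 0.04. Whether fewer cells of a type or less RNA per cell lies behind a difference cannot be told apart in whole-organ RNA.

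The clock list had 3 of 18 members higher and 2 lower, near the shares of all genes (15% and 9.99%). Per1, a clock gene that glucocorticoids and stress also induce, was scattered at 5.75, 6.45 and 6.91 in DMF 179.2 kidneys and 3.77, 4.99 and 5.94 in vehicle kidneys. The groups overlapped, and the difference of 1.59 ± 0.26 (adjusted p = 1.84e-06) was 1.34 within places 5 to 8, just short of a call (adjusted p = 0.0586). Cry1, a repressor of the clock, rose by 0.61 ± 0.13. Glucocorticoid-induced genes were higher in 4 of 16 and lower in 2, and immediate early genes higher in 3 of 24 and lower in 3, both near the shares of all genes (15% and 9.99%).

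Kidney injury genes were higher in 5 of 19 and lower in 1, against 15% and 9.99% of all genes. Fga, a fibrinogen chain that injured tubules make, had levels of 8.56, 8.91 and 9.26 in DMF 179.2 kidneys, against 7.65, 7.98 and 8.25 in vehicle kidneys (0.93 ± 0.11, adjusted p = 6.89e-10). Of the other fibrinogen chain genes, Fgb gave 0.23 ± 0.20 without a call (adjusted p = 0.483), and Fgg was the lower member, at 7.57 to 8.53 in DMF 179.2 kidneys and 7.88 to 8.36 in vehicle kidneys (-0.33 ± 0.12, adjusted p = 0.034). Fgg lost its call with place in the model (-0.35, adjusted p = 0.0556), within places 5 to 8 (-0.21, adjusted p = 0.682), and without any one of the DMF 179.2 animals 70, 71, 72 and 74 or the vehicle animals 52, 54, 55 and 57, at -0.33 to -0.29. Krt18, a keratin of simple epithelia, rose by 0.57 ± 0.09 and Lgals3, galectin 3, by 0.51 ± 0.06, both without overlap. The standard injury markers did not follow: Havcr1, which encodes KIM-1, ranged over 2.90 to 3.48 with DMF 179.2 and 3.12 to 3.27 with vehicle, and Lcn2, which encodes NGAL, over 6.21 to 7.28 with DMF 179.2 and 5.72 to 7.19 with vehicle, and neither was called. Matrix and fibrosis genes were higher in 1 of 13 and lower in 1.

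Against 15% and 9.99% of all genes, inflammatory NF-kB genes were higher in 1 of 21 and lower in 0. Interferon-stimulated genes were higher in 0 of 21 and lower in 2. The NF-kB genes were dim, with mean list levels of 4.38 to 4.58 over DMF 179.2 kidneys and 4.39 to 4.53 over vehicle kidneys. Of them, 3 lay within 0.05 of the floor on all 15 arrays, so the lack of calls says little about a response. Ifit3, an interferon-stimulated gene, was lower at 9.10 to 9.33 in DMF 179.2 kidneys, against 9.36 to 9.74 in vehicle kidneys (-0.36 ± 0.08), and was not called within places 5 to 8 (-0.30, adjusted p = 0.138). The alarmin genes S100a8 and S100a9 of myeloid cells were higher. S100a8 had levels of 4.30, 5.34 and 6.70 in DMF 179.2 kidneys, against 3.75, 4.08 and 4.41 in vehicle kidneys, and S100a9 had 6.53, 6.95 and 8.41 with DMF 179.2, against 5.60, 5.90 and 6.58 with vehicle. Their differences of 1.34 ± 0.24 and 0.97 ± 0.28 overlapped between groups and were 1.33 and 1.21 within places 5 to 8, not called (adjusted p = 0.059 and 0.104). In the neutrophil list these were the only 2 of 10 markers called, with mean list levels of 3.56 to 3.98 over DMF 179.2 kidneys and 3.42 to 3.58 over vehicle kidneys, and the defining markers Elane, Camp, Ngp and Cxcr2 were at or near the floor in both groups. The macrophage list had 2 of 10 higher and 1 lower, at mean levels of 5.53 to 5.86 with DMF 179.2 and 5.39 to 5.67 with vehicle. These counts of the macrophage list were near the shares of all genes. Its lysosomal marker Cd68 gave 0.51 ± 0.16 and, within places 5 to 8, 0.53 without a call (adjusted p = 0.0824). The part of these cells in the other results was not tested. T cell, B cell and natural killer cell lists had 0 members higher and 1 of 7, 0 of 6 and 1 of 6 lower. These 3 lists were dim. Their mean levels were 3.64 to 3.77, 2.79 to 2.95 and 3.14 to 3.30 with DMF 179.2. With vehicle they were 3.68 to 3.84, 2.78 to 2.93 and 3.18 to 3.25, so a difference could be missed. Endothelial markers had 0 of 8 higher and 3 lower, against 15% and 9.99% of all genes.

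Hypoxia-inducible genes were higher in 8 of 19, 5 of them place-stable, and lower in 2, against 15% and 9.99% of all genes. Slc2a1, the basal glucose carrier, had levels of 12.19, 12.49 and 12.60 in DMF 179.2 kidneys, against 11.82, 11.88 and 12.04 in vehicle kidneys (0.55 ± 0.05, adjusted p = 5.33e-15). P4ha2, a collagen prolyl hydroxylase, rose by 0.59 ± 0.08, the mitochondrial gene Higd1a by 0.39 ± 0.05, and Pfkfb4, a regulator of glycolysis that was dim in vehicle kidneys (3.71 to 3.78, against 3.75 to 5.12 with DMF 179.2), by 0.79 ± 0.10, or 0.47 within places 5 to 8. The remaining 11 members were called lower or not called.

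Fumarate is an intermediate of the citric acid cycle, and that list was near the background, with 3 of 22 higher and 2 lower. Fh1, fumarate hydratase, was higher at 12.05, 12.13 and 12.32 in DMF 179.2 kidneys, against 11.85, 11.92 and 11.92 in vehicle kidneys (0.25 ± 0.04). Sdhc, a subunit of succinate dehydrogenase, which makes fumarate, fell to 11.11, 11.26 and 11.46 with DMF 179.2, against 11.51, 11.56 and 11.61 with vehicle (-0.29 ± 0.04). Neither gene overlapped between groups. Complex I subunits were higher in 4 of 32 and lower in 5, all within 0.21 of 0.

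Cell cycle genes were higher in 9 of 23, 2 of them place-stable, and lower in 2, against 15% and 9.99% of all genes. Birc5, survivin, had 6.51, 6.79 and 7.92 in DMF 179.2 kidneys, against 5.75, 6.03 and 6.32 in vehicle kidneys (0.89 ± 0.21), and was not called within places 5 to 8 (0.96, adjusted p = 0.106). Mcm2, of the replicative helicase, rose by 0.44 ± 0.10 and Rrm2, of ribonucleotide reductase, by 0.47 ± 0.09, the second from a dim signal and by 0.24 as the mean of its probe sets. Of 26 splicing regulators and RNA-binding proteins, 6 were lower, 3 higher and 17 not called, with a median difference of 0.02. Hnrnpa1 had levels of 11.06, 11.16 and 11.35 in DMF 179.2 kidneys, against 11.51, 11.58 and 11.69 in vehicle kidneys (-0.42 ± 0.04), and Son (-0.47 ± 0.07) and Luc7l3 (-0.39 ± 0.06) fell as well, without overlap and place-stable. As means of their probe sets Son and Luc7l3 gave -0.09 and -0.15, and Luc7l3 gave -0.23 with place in the model.

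The dose of DMF was asked next. Between the higher and the lower dose at 6 h, 1074 genes (6.28%) were called higher and 490 (2.87%) lower, against 755 and 767 after a further quantile normalization. The animals of the 2 doses held partly different places. With place in the model 936 genes were higher and 531 lower. A fit of these 2 groups alone called 851 genes in place of 1564. Of the 113 measured members of the NRF2-linked lists, 25 were higher and 5 lower with 179.2 than with 100 mg/kg. Some genes stood almost as high at the lower dose. Nqo1 averaged 9.58 ± 0.13 with vehicle, 10.94 ± 0.14 with 100 mg/kg and 11.07 ± 0.10 with 179.2 mg/kg (SD, n = 7, 8 and 8), and the dose difference of 0.12 ± 0.08 was not called (adjusted p = 0.388). Gclm (0.08 ± 0.05, adjusted p = 0.433), Gclc (0.17 ± 0.11, adjusted p = 0.394) and Abcc4 (0.18 ± 0.09, adjusted p = 0.224) were not called either.

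Other members of the response were higher at the higher dose. Hmox1 averaged 8.05 ± 0.73 with vehicle, 10.40 ± 0.75 with 100 mg/kg and 11.52 ± 0.35 with 179.2 mg/kg, a dose difference of 1.12 ± 0.20 (adjusted p = 9.35e-05). Alas1 averaged 8.82 ± 0.23 with vehicle, 9.52 ± 0.14 with 100 mg/kg and 10.12 ± 0.15 with 179.2 mg/kg (0.60 ± 0.10, adjusted p = 6.87e-05). Aox1 followed at 0.82 ± 0.18, Ugt2b5 at 1.03 ± 0.28, Chac1 at 0.75 ± 0.20 and Mt1 at 0.37 ± 0.06 (adjusted p = 0.00194, 0.0104, 0.00927 and 5.04e-05). Cbr3 was just past the threshold at 0.36 ± 0.12 (adjusted p = 0.046) and just short of it with place in the model (0.36, adjusted p = 0.0599). Among lowered genes, Snx29 averaged 8.08 ± 0.23 with vehicle, 7.38 ± 0.19 with 100 mg/kg and 6.69 ± 0.36 with 179.2 mg/kg (-0.69 ± 0.13, adjusted p = 0.00027), and Slc10a1 (-0.59 ± 0.13) and Kcnj15 (-0.62 ± 0.13) were also lower at the higher dose. Within the DMF 179.2 group Snx29 stood at 7.13 in animal 67 and 5.98 in animal 74, and Kcnj15 at 8.61 and 7.60. The part of place in the dose differences of these lowered genes was not tested further.

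**Figure D4:**
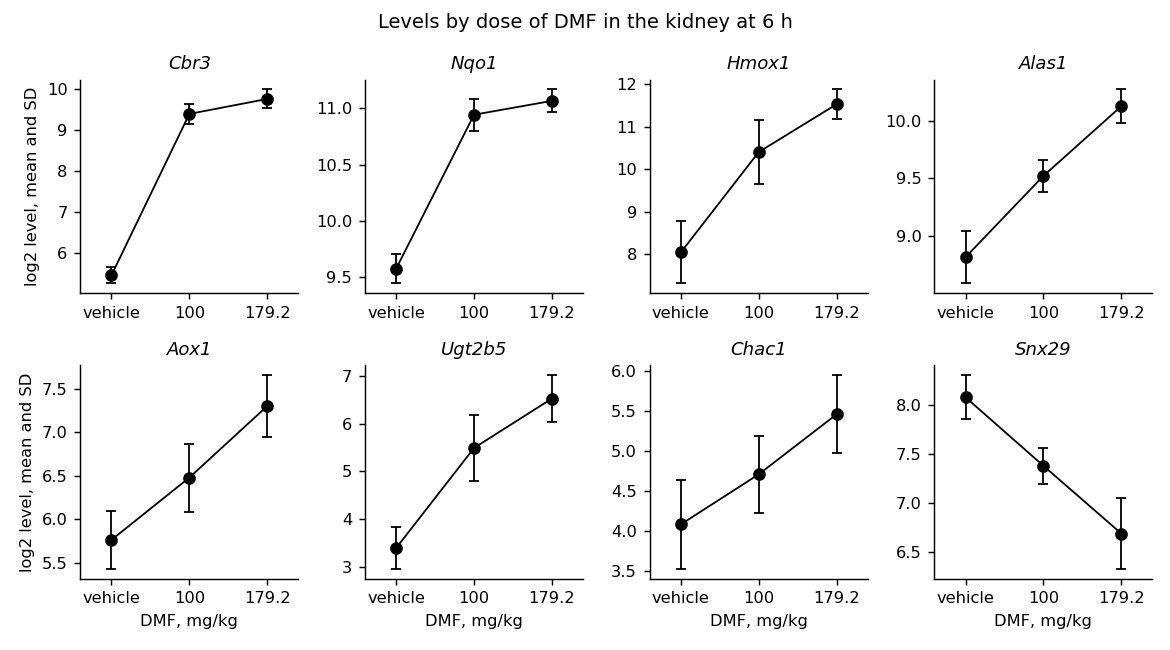
Mean log2 level with SD (y axis) at each dose of DMF (x axis, vehicle with 7 kidneys, 100 and 179.2 mg/kg with 8 each) for 8 genes at 6 h. Nqo1 was not called between the doses, Cbr3 (0.36), Hmox1, Alas1, Aox1, Ugt2b5 and Chac1 were higher at 179.2 mg/kg, and Snx29 was lower there; the axes do not start at 0.

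Whether the effect had the same size later was tested as the difference between the 6 h and the 12 h effect, each against the vehicle of its own time. It was called for 1220 genes (7.14%), positive for 651 and negative for 569. After a further quantile normalization the split was 617 and 698, so the called genes did not lean to 1 side on both scales. Of 10 genes chosen for this question, 6 were called, each with a larger effect at 6 h. All 10 were raised at 6 h and chosen with earlier results known, so they do not stand for the whole response. Hmox1 rose by 3.47 ± 0.20 at 6 h and 1.03 ± 0.20 at 12 h, a difference of 2.45 ± 0.28 (adjusted p = 6.38e-09). Cbr3 rose by 4.30 ± 0.13 at 6 h and 2.996 ± 0.12 at 12 h (1.30 ± 0.18, adjusted p = 8.90e-07). The glutathione ligase gene Gclc gave 0.99 ± 0.11 and 0.16 ± 0.11 (0.83 ± 0.16, adjusted p = 0.000191), Osgin1 1.03 ± 0.09 and 0.18 ± 0.09 (0.86 ± 0.13), Mt1 0.86 ± 0.06 and 0.41 ± 0.06 (0.45 ± 0.09), and Per1 1.59 ± 0.26 and 0.33 ± 0.25 (1.26 ± 0.36, adjusted p = 0.0201). By contrast Nqo1 was as far above vehicle at both times, 1.49 ± 0.08 at 6 h and 1.45 ± 0.08 at 12 h, with a difference of 0.05 ± 0.11. Akr1b8 (0.36 ± 0.20), Chac1 (0.10 ± 0.29) and Atf3 (-0.11 ± 0.27) were not called either.

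**Figure D5:**
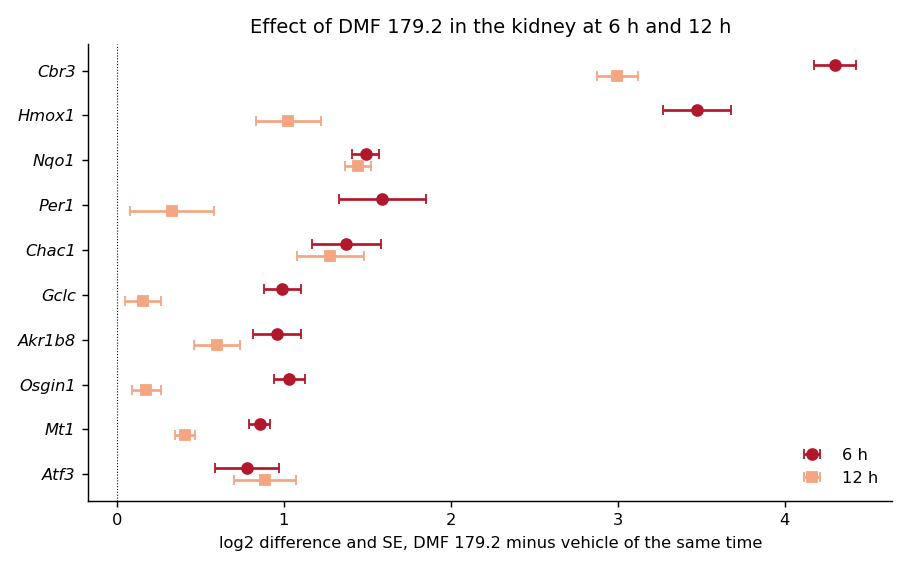
Log2 difference of DMF 179.2 minus the vehicle of the same time, with SE (x axis), for 10 genes (y axis) at 6 h (circles) and 12 h (squares). Hmox1, Cbr3, Gclc, Osgin1, Mt1 and Per1 had larger effects at 6 h, while Nqo1 lay at 1.49 and 1.45.

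The MEF salts were given at another dose and share the vehicle kidneys, so their values stand beside those of DMF without a comparison. MEF is the ethyl monoester of fumaric acid, with a free acid group, and here came with zinc. Cbr3 averaged 9.76 ± 0.23 with DMF 179.2 mg/kg and 9.87 ± 0.17 with MEF 79.2 mg/kg, and Nqo1 11.07 ± 0.10 with DMF and 10.98 ± 0.07 with MEF. For Gclc the means were 11.22 ± 0.14 with DMF and 11.55 ± 0.13 with MEF, and for Hmox1 11.52 ± 0.35 with DMF and 11.72 ± 0.22 with MEF. Chac1 averaged 5.46 ± 0.49 with DMF 179.2 mg/kg, 4.20 ± 0.30 with MEF and 4.08 ± 0.56 with vehicle, and Kcnj15 averaged 8.21 ± 0.35 with DMF, 9.17 ± 0.15 with MEF and 9.26 ± 0.21 with vehicle.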

How the data were processed

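Log2 probe set levels, as deposited by the authors in the matrix of the series, were used. The submitters' processing notes name RMA, GCRMA, R 2.11.1 and limma 3.4.5, with no role or order given. Background correction and summarization by such methods set a floor, 2.16 log2 at 6 h, so fold changes of dim genes are compressed. On the 6 h kidney arrays 20.8 to 22.4 percent of values lay at this floor. Scanner files were not used here, so signal over background is unknown and the number of arrays limits precision. The platform annotation paired 28898 of 45141 probe sets with 1 gene and 551 with several; 15588 were unnamed and 104 were controls. Each of 17097 genes was represented by its probe set of highest mean. The 473 columns of other organs were not used.

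All 77 kidney arrays entered 1 fit with a mean for each of 11 groups (limma 3.58.1 in R 4.3.3, tables read by data.table version 1.17.8), with moderated variances, 2-sided p-values and Benjamini-Hochberg adjustment within a contrast. The 12 h arrays have a floor of their own (2.23), so times are compared only as differences from their own vehicle. Errors of differences are SE of the model and those of levels SD. Single levels used the exact permutation test of scipy 1.17.1. Plots came from matplotlib 3.10.9 and tables from pandas 2.3.3 with numpy 2.4.6, under Python 3.11.15.

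Named genes were the 15 highest and 15 lowest differences among called genes whose mean over the 15 arrays exceeded the median gene (6.34), leaving out predicted and sex-linked genes, plus Tra2b and members of 50 gene lists. The genes, lists and tests were chosen with earlier results of these data known, so no list serves as independent support. Alternatives were place as a covariate, places 5 to 8 alone, fits of fewer groups, a further quantile normalization, dim genes left out, trend and robust variances, array weights, averaging a gene's probe sets and leaving out each array. The fitting steps were tested on simulated data.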

Additional observations from a re-analysis of the deposited data

Results flagged for a closer look

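In 242 groups of levels of the named genes, 17 held 1 kidney far from the others by Dixon's test, and chance alone flags about 1 in 20 groups. Among DMF 179.2 kidneys, animal 68 was lowest for Cyp2a5 (12.03) and Slc38a3 (6.80) and highest for Birc5 (7.92) and Fgg (8.53). Animal 69 was highest for S100a9 (8.41), animal 70 lowest for Krt18 (9.65) and animal 73 lowest for Napsa (6.62). Among vehicle kidneys, animal 54 was highest for Hsp90aa1 (10.59) and lowest for Slc38a3 (5.78) and Slc7a9 (11.09). Animal 52 was lowest for Gss (8.91) and highest for Rrm2 (4.01), animal 55 highest for Gstm3 (3.25) and Slc3a1 (12.36), and animal 56 lowest for Lgals3 (8.79). Animal 57 was highest for Pfkfb4 (3.78) and lowest for Tra2b (5.26). Leaving out any one of these arrays ended no call among the named genes other than those of Cyp27b1 and Fgg.

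The effect of DMF 179.2 differed between 6 h and 12 h for 1220 genes by limma's test of the difference itself. The difference was positive for 651 and negative for 569. Among the 10 genes asked about, the 6 h effect exceeded the 12 h effect by 0.83 for Gclc, 2.45 for Hmox1, 1.30 for Cbr3, 0.86 for Osgin1, 0.45 for Mt1 and 1.26 for Per1, on the log2 scale.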

How the results depend on the processing

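Across the alternatives that kept all 15 arrays, 3498 to 4637 genes were called between DMF 179.2 and vehicle, against 4267 in the model of all kidney groups. Leaving out each array in turn gave 3797 to 4343. Within places 5 to 8, which hold 4 and 3 arrays, 1124 genes were called. The NRF2-linked lists had 52 to 64 members higher in these fits, 59 to 64 without each array in turn, and 41 within places 5 to 8. Of 121 named genes called, 120 kept the call with place as a line or as a curve, the exception being Fgg, and 86 within places 5 to 8, where 35 lost it. Their direction held under every alternative run except that of Esd, which was -0.030 ± 0.044 as the mean of its probe sets. Cyp27b1 and Fgg also lost their calls in fits of fewer groups. For the dose contrast, a fit of the 2 groups alone called 851 genes, in place of 1564; it has fewer arrays to estimate the spread. The time contrast gave 1024 to 1315 genes. Within places 5 to 8 the beta-actin 3′ minus 5′ difference was 0.122 (exact permutation p = 0.0571, the smallest that 4 against 3 arrays allow), that of Gapdh turned to -0.00357 and that of Tra2b was -0.676 (p = 0.229). No paired analysis was possible because the compared groups share no animal numbers. The floor limits what can be seen for 2585 genes that lay within 0.05 of it on all 15 arrays.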
